A study of Mus musculus with 2 samples.

Results

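Mature dendritic cells of visceral adipose tissue (VAT) were taken as the cells with at least 2 UMIs of Fscn1 and at least 2 UMIs of Ccl22 and Ccr7 together. A UMI (unique molecular identifier) marks 1 captured mRNA molecule. A member also had fewer than 10 UMIs of the macrophage genes C1qa, C1qb and C1qc together, no UMI of the T cell genes Cd3e and Cd3d, and at most 1 UMI of the B cell gene Cd79a. Of 25198 cells that passed the filters of at least 500 UMIs, at least 200 genes and at most 25% mitochondrial UMIs, 186 were members, with 136 in the normal water (NW) library and 50 in the antibiotic (ABX) library. CD45+ cells had been isolated from VAT of wild-type C57BL/6 mice aged 15 weeks that drank normal water or received antibiotics, and each condition gave 1 library of mRNA and antibody counts. The study's methods list ampicillin, streptomycin, colistin and vancomycin in drinking water, singly or mixed, and refer the single-cell mice back to that treatment without naming which was used. The number of mice behind a library is not given in the sources used here. With 1 library per condition, the spread between mice is unknown, so no difference between NW and ABX carries a test. The intervals below are 95% intervals that cover counting error only.

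Conventional dendritic cells sample antigen in tissues, and fall into cDC1, which depend on Irf8 and Batf3 and present antigen to CD8 T cells, and cDC2, which depend more on Irf4 and favour CD4 T cells. On maturation, either type stops capturing antigen, displays peptide with co-stimulatory ligands and follows CCL19 and CCL21 through the receptor CCR7 towards the draining lymph node. Fscn1 encodes the actin-bundling protein fascin, which supports the long protrusions of mature dendritic cells, and Ccl22 encodes a chemokine that attracts CCR4-bearing T cells, regulatory T cells among them.

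NF-kB transcription factors drive much of the maturation programme, so the 250 bases before the transcription start of 3 genes that are described below are shown first. Nfkb2 encodes an NF-kB subunit, Il2ra encodes CD25, which was also measured with an antibody, and Icosl was past the fold limit between the libraries. They were picked with their values known. The sequences are from RefSeq on GRCm38.p6, written 5′ to 3′, and capitals mark matches to the kappaB consensus on either strand. Nfkb2, at chr19:46304487-46304736 on the plus strand before the first of 3 annotated starts, held matches from 39 to 29 and from 11 to 2 bases upstream. Il2ra, at chr2:11642542-11642791 on the plus strand, held a match from 201 to 191 bases upstream, and Icosl, at chr10:78069118-78069367 on the plus strand, from 111 to 102 bases upstream.
Nfkb2: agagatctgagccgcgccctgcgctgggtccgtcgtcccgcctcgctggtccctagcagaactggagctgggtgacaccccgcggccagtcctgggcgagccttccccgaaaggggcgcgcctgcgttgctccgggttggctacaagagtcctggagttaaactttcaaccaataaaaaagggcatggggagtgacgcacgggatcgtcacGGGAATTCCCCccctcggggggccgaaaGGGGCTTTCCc
Il2ra: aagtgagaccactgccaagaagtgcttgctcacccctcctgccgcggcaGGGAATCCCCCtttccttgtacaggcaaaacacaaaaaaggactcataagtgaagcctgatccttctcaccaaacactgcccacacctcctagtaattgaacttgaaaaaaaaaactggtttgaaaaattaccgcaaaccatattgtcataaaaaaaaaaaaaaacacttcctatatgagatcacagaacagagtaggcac
Icosl: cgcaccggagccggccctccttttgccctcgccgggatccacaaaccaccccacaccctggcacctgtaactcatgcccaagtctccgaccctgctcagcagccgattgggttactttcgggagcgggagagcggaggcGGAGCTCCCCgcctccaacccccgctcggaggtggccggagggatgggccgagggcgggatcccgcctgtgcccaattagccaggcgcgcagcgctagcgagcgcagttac
Such a match stood in 7.25% of all 32851 promoters of the table. Counted per gene over any annotated start, as in the counts that follow, it stood in 8.23% of the 27025 gene symbols of the table. It stood in 7 of the 15 NF-kB signalling genes found there (Rel, Nfkb2, Nfkbia, Nfkbie, Traf3, Tnfaip3 and Tank), and in 4 of 10 genes of MHC class I presentation (B2m, H2-K1, H2-D1 and Calr). The other lists searched held it in 4 of 16 chemokines and cytokines, 2 of 10 transcription factors, 2 of 13 cytokine receptors, 1 of 6 co-stimulatory ligands, 1 of 10 survival genes, 1 of 13 inhibitory and tolerance genes and none of 2 genes of the rule. Among genes at least 2-fold higher in the mature cells than in both cDC1 and cDC2, 49 of 293 held a match (16.7%), beside 252 of the 2112 genes compared (11.9%). A match describes letters and is no evidence that a factor binds.

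Mature dendritic cells were 1.09% of the NW cells (136 of 12474, interval 0.916 to 1.29%). In ABX they were 0.393% (50 of 12724, 0.292 to 0.518%), a ratio of 0.360 (0.261 to 0.498). For scale, cDC1 were the cells with at least 2 UMIs of Xcr1 and Clec9a together, and cDC2 those with at least 2 UMIs of Cd209a. The cDC1 made up 8.49% and 6.31% of cells (ratio 0.743, 0.681 to 0.812) and the cDC2 2.04% and 1.48% (0.723, 0.5996 to 0.871). Within all 3 classes together, mature cells were 9.38% of 1450 NW dendritic cells and 4.80% of 1041 ABX dendritic cells, a ratio of 0.512 (0.374 to 0.701). For every 100 cDC1 there were 12.8 mature cells in NW and 6.23 in ABX, and for every 100 cDC2 there were 53.3 and 26.6. Shares are of a whole, and the share of macrophages differed too, at 36.2% in NW and 23.3% in ABX.

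**Figure D1:**
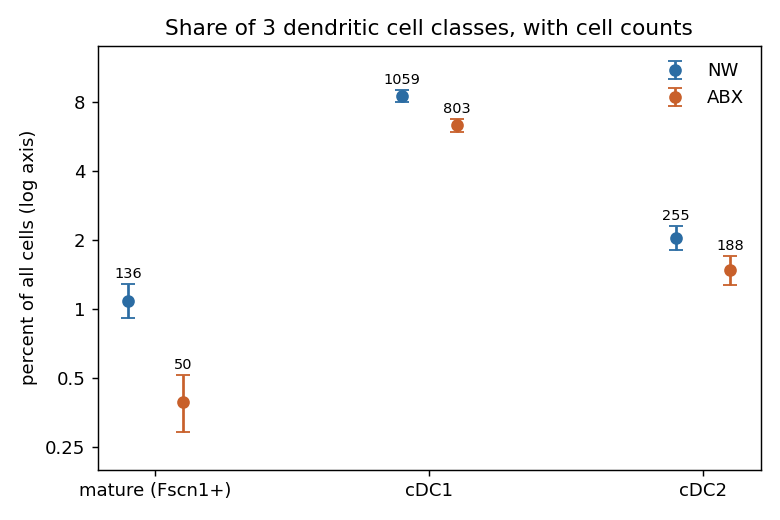
Share of mature dendritic cells, cDC1 and cDC2 among all cells of each library, on a log axis. Points are shares, bars are exact 95% binomial intervals and the numbers are cells. The mature cells lie at 1.09% in NW and 0.393% in ABX, with intervals that do not overlap.

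The limit on macrophage genes moved the size of this difference. With fewer than 3 C1q UMIs in place of fewer than 10, 54 NW and 34 ABX members were left and the ratio was 0.617 (0.402 to 0.947). Under that limit the ratio of cDC1 turned to 1.39 (1.22 to 1.58) and that of cDC2 was 0.928 (0.738 to 1.17). C1q UMIs were more frequent in NW dendritic cells of every class, and 39.7% of NW members, 68% of ABX members, 34.8% of NW cDC1 and 65.1% of ABX cDC1 had fewer than 3. The part of C1q RNA in the ratio of shares was not tested. Set against dendritic cells under the same limit, the mature share had a ratio of 0.516 (0.341 to 0.781), beside 0.512 without it.

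The genes of the rule are given as a description. Fscn1 had a median of 28 UMIs per NW member (range 2 to 142) and 29 per ABX member (2 to 158). Ccl22 had medians of 5 and 7, ranging from 0 to 329 and from 0 to 122, and Ccr7 had medians of 15 and 11.5, with highest values of 63 and 55. At the edge of the rule, 5 NW and 2 ABX members had 2 Fscn1 UMIs, and 6 NW and 2 ABX cells that met every other limit had 1. Both of those ABX members carried a UMI of the endothelial gene Pecam1. Of cells with enough Fscn1 but no Ccl22 or Ccr7, 26 in NW and 50 in ABX, 16 and 31 had a Pecam1 UMI, and these cells were not members. A C1q, Cd3 or Cd79a limit left out 30 NW and 11 ABX cells that met the limits on Fscn1, Ccl22 and Ccr7.

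Members had a median of 8052.5 UMIs in NW and 7373.5 in ABX, and 1110113 and 362408 UMIs in all, so a rare transcript was seen with less precision in ABX. No barcode was shared by members of both libraries, among 196 barcodes shared by cells that passed the filters. The 8 dendritic cell identity genes summed to 3002 and 3118 CPM in NW and ABX members, against 489 and 517 in macrophages. In cDC1 they summed to 2757 and 2659, and in cDC2 to 1915 and 1918. None was at least 2-fold above cDC1 in both libraries and 1 was below, so they do not set mature cells apart from cDC1. Among them Zbtb46, a transcription factor of conventional dendritic cells, stood at 108 and 105 CPM in NW and ABX members, against 11.9 in ABX macrophages. CPM are UMIs summed over the cells of a class and scaled to the same total in every class. Summed over 12 macrophage genes the members had 686 and 513 CPM, beside 726 and 511 in cDC1 and 25552 and 23492 in macrophages, and Fcgr1 was at 0 in ABX members. The 8 monocyte genes summed to 419 and 237 CPM, with Ace at 0 in both libraries. The 9 T cell genes summed to 37.8 and 44.1, with Cd3e and Cd3d at 0 by the rule, and the 7 B cell genes to 59.5 and 113. Stromal and endothelial genes reached 89.2 and 110, plasmacytoid dendritic cell genes 106 and 96.6, ILC and NK genes 45.9 and 46.9, neutrophil genes 11.7 and 2.76, and mast cell genes 1.802 and 5.52. Cd3g, Pax5, Ncr1, Klrb1c, S100a8 and Mmp9 were at 0 in ABX members, and Krt19, Msln, Klk1, Cox6a2, Mcpt8, Ms4a2 and Cma1 in the members of both libraries. The part of RNA from these cells in the ABX and NW differences was not tested.

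The mature cells were next compared with cDC1 and cDC2 of the same library. Cells of all 3 classes were chosen on measured genes, so these values describe the classes. A gene was counted when it was at least 2-fold higher or lower in both libraries, on the log2 scale of CPM with 10 CPM added. Of 2903 genes compared with cDC1, 463 (15.9%) were higher and 453 (15.6%) lower, and of 2985 compared with cDC2, 446 (14.9%) were higher and 498 (16.7%) lower. The 15 genes with the highest mean ratio over cDC1 were Fscn1, Ccr7, Fabp5, Ccl5, Ccl22, Cacnb3, Anxa3, Apol7c, Clu, Il4i1, Tmem123, Socs2, Samsn1, Ramp3 and Serpinb9. Over cDC2, 10 of these returned, with Serpinb6b, Gm13546, Tspan3, Zmynd15 and Cd63 as the others.

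Of 15 NF-kB signalling genes compared with cDC1, 14 were higher and none lower, and 8 of 15 were higher than cDC2. Relb, the partner of p52 in the alternative NF-kB pathway, was detected (at least 1 UMI) in every NW member and in 96% of those in ABX, with 882 and 833 CPM. In cDC1 it stood at 21.9 and 18.1 CPM and in cDC2 at 38.6 and 46.8. Nfkb2, which encodes p100 and p52, was 3.01 and 3.13 log2 units above cDC1 in NW and ABX. Traf1, an adaptor of TNF receptors, was 3.49 and 3.76 above, and Birc2, a ubiquitin ligase of the same complexes, 3.32 and 3.36. Nfkb1, which encodes p105 and p50, was the exception, at 0.38 and -0.18 against cDC1 and -0.92 and -1.71 against cDC2.

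Chemokine and cytokine transcripts were few in kind and high in level. Of 8 compared with cDC1, 6 were higher and 1 lower, and of 10 compared with cDC2, 6 were higher and 4 lower. Ccl5, a chemokine that attracts T cells, stood at 4454 CPM in NW and 5866 in ABX members, against 31.7 and 45.3 in cDC1. Its median was 17 UMIs per NW member and 22 per ABX member, from 0 to 465 and from 0 to 353. Cxcl16, the ligand of CXCR6, stood at 862 and 1134 CPM against 121 and 106 in cDC1. Il4i1, a secreted amino acid oxidase that dampens T cell proliferation, was 5.52 and 5.30 log2 units above cDC1. Il12b, the shared subunit of IL-12 and IL-23, was detected in 19 of 136 NW members and 13 of 50 in ABX. It was detected in 0.133% of NW macrophages and in none of 2967 in ABX, whose median depth was 6485 and 5298 UMIs. Its partners Il12a and Il23a had no UMI in any member, and neither did Il10, Il27, Ccl19 or Il33. At 3 counts, an absence in NW allows 2.70 CPM and in ABX 8.28 CPM.

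Ligands that act on T cells were split. Of 7 co-stimulatory ligands compared with cDC1, 4 were above and 1 below, and of 8 compared with cDC2, 4 were above and 2 below. Cd83 stood at 912 and 1087 CPM against 244 and 182 in cDC1, and Cd40, the receptor for T cell help, was 3.15 and 3.07 log2 units above cDC1. Cd80, a ligand of CD28 and CTLA-4, was 2.31 above in each library, while its relative Cd86 was at -0.50 and -0.98. Cd48 was below, at -1.84 and -1.85. Of 8 inhibitory and tolerance genes, 7 were above cDC1 and 1, Havcr2, was below. Cd274, which encodes PD-L1, was 3.27 and 2.90 above, and Cd200 2.84 and 2.82. Socs2, a feedback inhibitor of cytokine signalling, was 5.51 and 5.11 above. Aldh1a2, the enzyme that makes retinoic acid from retinal, stood at 1206 and 775 CPM in members and at 31.0 and 32.4 in cDC1.

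Of 14 cytokine receptors, 7 were above cDC1 and 2 below, and 7 were above cDC2 and 4 below. Il7r, the alpha chain of the IL-7 and TSLP receptors, was detected in 89.0% of members in NW and 88% in ABX, and in 8.44% and 7.31% of macrophages. Il2ra, the alpha chain of the IL-2 receptor, was 3.95 and 3.36 log2 units above cDC1, and Il15ra, which presents IL-15 to neighbouring cells, 3.15 and 3.03. Ifngr1, the ligand-binding chain of the interferon-gamma receptor, was far lower than in cDC1, at 95.5 and 38.6 CPM in members against 879 and 884. Csf2rb, the common beta chain for GM-CSF, stood at 873 and 1040 CPM against 168 and 172.

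Of 19 genes of shape and movement compared with cDC1, 12 were above and 3 below, and of 20 compared with cDC2, 11 were above and 4 below. Marcksl1, an actin-binding protein, was 4.12 and 3.92 log2 units above cDC1, Anxa3 5.88 and 5.90, and Samsn1 5.22 and 5.31. Actb, the cytoplasmic actin, made up 30510 and 31467 CPM in members and 14700 and 13278 in cDC1. The 3 below cDC1 were Ccr2, Itgb7 and Itgae. Ccr2, a chemokine receptor, stood at 29.7 and 13.8 CPM against 922 and 754 in cDC1, and Itgb7, an integrin beta chain, at 27.0 and 22.1 against 501 and 481. All survival genes compared except Mcl1 were above both classes, 6 of 7 each, with Serpinb9, an inhibitor of granzyme B, at 955 and 822 CPM against 15.6 and 17.6 in cDC1. Fabp5, a fatty acid carrier, stood at 2682 and 1730 CPM against 14.2 and 5.78.

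The antigen presentation genes parted by class. Of 11 genes of MHC class I presentation, 4 were above cDC1 and none below. B2m, the invariant light chain, stood at 6484 and 6873 CPM against 1677 and 1718, and H2-K1 at 3707 and 4271 against 1032 and 1128. Of 14 class II and antigen-loading genes, 7 were below cDC1 and 11 below cDC2. H2-Ab1, a class II beta chain, stood at 3295 and 2679 CPM in members, 12844 and 12102 in cDC1 and 16316 and 17325 in cDC2. H2-DMb1, part of the peptide exchanger of class II, was at 30.6 and 33.1 against 392 and 367 in cDC1, and Ciita, the master activator of class II genes, at 56.8 and 35.9 against 318 in each. The 2 list members above cDC1 were Cd63, a tetraspanin of late endosomes, and Lgmn, a lysosomal protease, and neither is a class II gene.

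Among transcription factors of maturation, 7 of 8 were above cDC1 and none below. Stat4, which transmits IL-12 signals, was 4.75 and 4.80 log2 units above, and Nr4a3, a nuclear receptor linked to dendritic cell migration, 4.82 and 5.14. Lineage factors were lower. Irf8 stood at 192 and 179 CPM in members against 1636 and 1447 in cDC1, and 14 of the 16 cDC1 lineage genes were below cDC1, with Xcr1 and Clec9a among them used to choose the cDC1. Of 10 cDC2 lineage genes, 8 were below cDC2, with Cd209a itself used to choose the cDC2. Mki67, a marker of dividing cells, had 3 UMIs in each library, at 2.70 and 8.28 CPM against 98.5 and 125 in cDC1. The dissociation stress genes, immediate early and heat shock genes that rise during tissue digestion, had 9 of 15 below cDC1, and they summed to 6314 and 5176 CPM in members against 14200 and 11792.

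**Figure D2:**
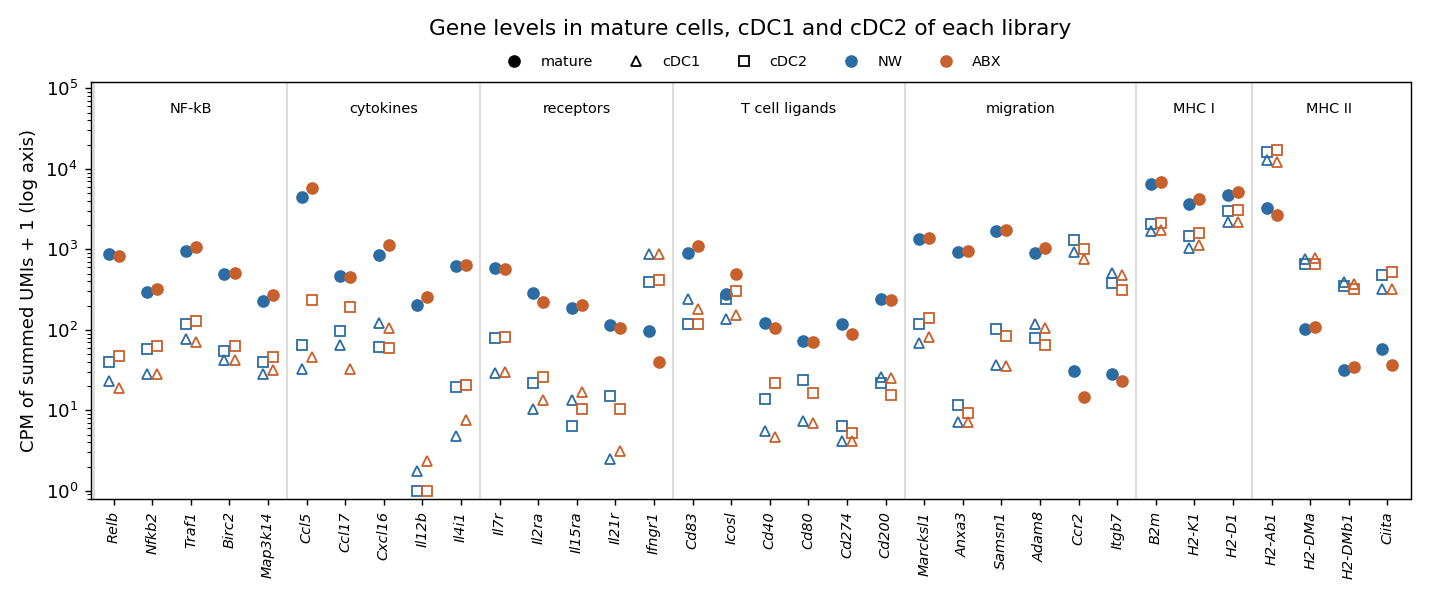
Levels of named genes in mature cells (filled circles), cDC1 (triangles) and cDC2 (squares) of the NW and ABX libraries, as CPM of summed UMIs plus 1 on a log axis. Relb lies at 882 and 833 CPM in mature cells and near 20 in cDC1, while H2-Ab1 is higher in both cDC classes than in mature cells.

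Antibody counts gave a readout that the rule did not use, with medians of 238 antibody UMIs over all cells that passed the filters in NW and 209 in ABX. CD25 antibody had a median of 21 UMIs per NW member (quartiles 10 and 51) and 13 per ABX member (6.25 and 27.25), against 8 and 6 on cDC1, 8 and 5 on cDC2 and 10 and 9 on macrophages. At least 10 CD25 UMIs were on 77.2% (69.2 to 84.0%) of NW and 66% (51.2 to 78.8%) of ABX members, and on 44.3% and 32.6% of cDC1. Members with a UMI of Il2ra, the gene for CD25, carried a median of 36 CD25 UMIs in NW (65 cells) and 16.5 in ABX (26 cells), and those without carried 13 and 12. CD3 antibody, which no dendritic cell should bind, was also above cDC1, at 15 and 12 against 8 and 7, and was 15 with and 16 without an Il2ra UMI in NW and 11.5 and 14.5 in ABX. CD1d antibody stood at 17 and 13 against 9 and 8 on cDC1, 5 and 4 on cDC2, 14 and 13 on macrophages and 15 and 13 on B cells. Its gene Cd1d1 stood at 70.3 and 85.5 CPM against 14.2 and 19.3 in cDC1. CD44 antibody stood at 239 and 158.5 against 230 and 216. CD69 antibody had a median of 11 in each library, against 7 and 6 on cDC1, while its gene had a UMI in 1 NW member and in no ABX member.

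**Figure D3:**
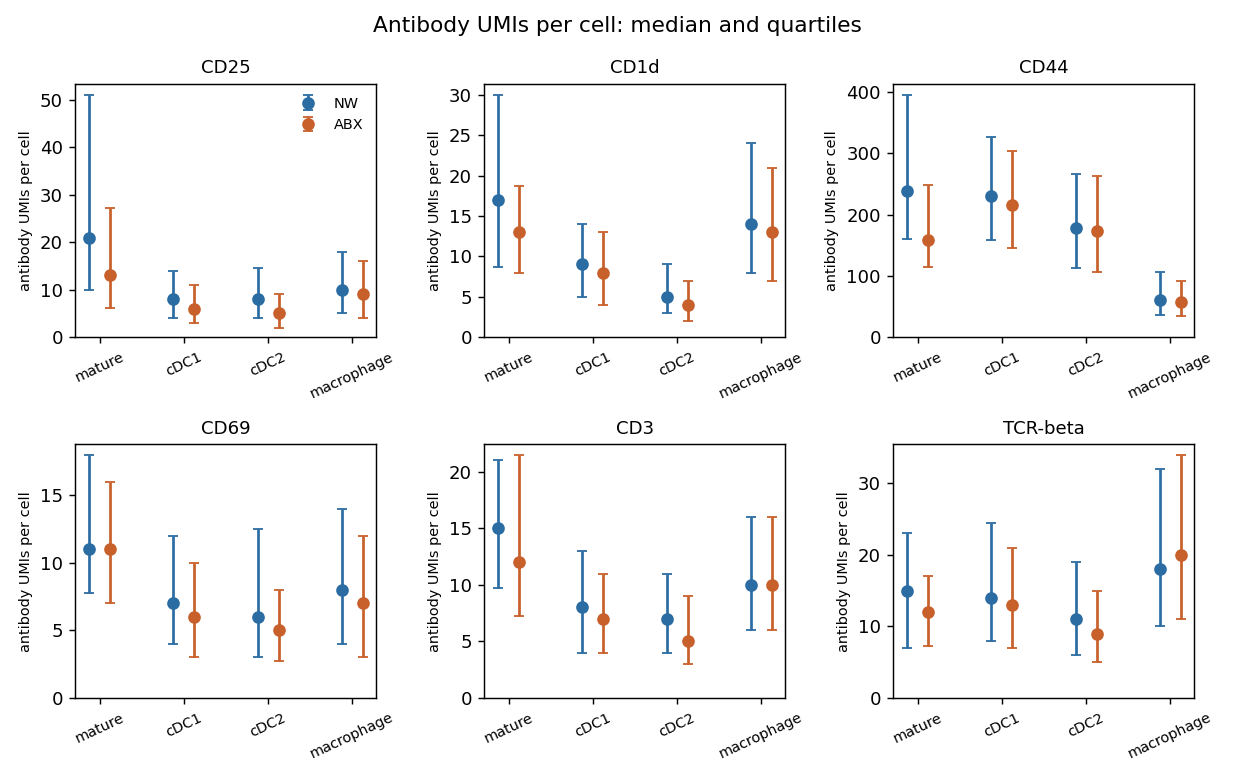
Antibody UMIs per cell for 6 of the 10 antibodies in mature cells, cDC1, cDC2 and macrophages of each library. Points are medians and bars span the quartiles. CD25 on mature cells has medians of 21 in NW and 13 in ABX, above the medians of the other 3 classes, and the CD3 antibody, a measure of background here, is also highest on the mature cells.

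Few genes were past the fold limit between the conditions. Of 2194 genes with at least 100 UMIs that were detected in 10% or more of the members of a library, 75 (3.42%) were at least 1.5-fold higher in ABX and 98 (4.47%) at least 1.5-fold lower. The median log2 ratio was 0.00. TMM scaling, which shifted that median to -0.05, gave 53 higher and 124 lower. The interval excluded no difference for 73 of the higher and 76 of the lower genes. None of 7 survival genes, none of 6 chemokines and cytokines and none of 9 class II genes was past the fold. Ccr7 had a log2 ratio of 0.01 (-0.10 to 0.13), Relb of -0.08 (-0.27 to 0.11), Il7r of -0.01 (-0.24 to 0.22) and Ccl17, like Ccl22 a ligand of CCR4, of -0.04 (-0.31 to 0.21). Nfkb1, at -0.59 (-1.11 to -0.10), was the only 1 of 15 NF-kB genes past it.

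Of the 8 genes highest in ABX, several were carried by few cells. Fgfbp3, a binding protein of fibroblast growth factors, had 46 UMIs in 13 NW members and 74 in 12 ABX members, with a log2 ratio of 2.30 (1.75 to 2.86). Its most loaded member held 37.0% of the NW and 31.1% of the ABX UMIs. Gclc, the catalytic subunit of the first enzyme of glutathione synthesis, was at 1.86 (1.48 to 2.25), but 1 ABX member held 77 of 127 UMIs and 1 NW member 36 of 107. Without the most loaded member of each library its ratio was 1.13. Npr1, a receptor of natriuretic peptides, was at 1.33 (0.96 to 1.71), detected in 30.1% of members in NW and 40% in ABX. Tm4sf5 was at 1.17, Scin, an actin-severing protein, at 1.04, Becn1, a core autophagy protein, at 1.03, Fam193a at 0.94 and Ola1 at 0.94. Becn1 was spread more widely, in 44.9% of members in NW and 72% in ABX.

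The 8 genes lowest in ABX were sparse apart from Nrp2. Gpsm3, a modulator of G protein signalling, had 91 UMIs in NW and 12 in ABX, at -1.31 (-2.31 to -0.43). Ifngr1 had 106 and 14, at -1.31 (-2.22 to -0.50), detected in 40.4% of members in NW and 22% in ABX, while it was detected in 97.5% of cDC1 of each library. Thinned to 2000 UMIs, which left out 3 NW and 6 ABX members, the share with an Ifngr1 UMI was 16.0% and 6.77%. Nrp2, a co-receptor of semaphorins and VEGF that also aids dendritic cell migration, had 504 and 75 UMIs, at -1.13 (-1.50 to -0.78). Ddb1 was at -1.25, Arl8a at -1.24, 4833420G17Rik and Ptk2b at -1.16 and Ccng1 at -1.15.

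Icosl, the ligand of the T cell co-stimulator ICOS, was 1 of 7 co-stimulatory genes and the only one past it. It had 310 UMIs in NW and 178 in ABX, at 0.81 (0.54 to 1.09), with medians of 1 and 2 UMIs per member and highest values of 16 and 22. The share of members with an Icosl UMI was 55.9% and 78%, and 35.3% and 48.0% when thinned. The thinned shares were 36.7% and 42.1% in cDC2, 22.9% and 25.5% in cDC1 and 11.7% and 15.6% in macrophages. Without the members that held 3 or more UMIs of other-cell genes rare in cDC1 and cDC2, an alternative set after the data had been seen, Icosl was at 0.52. Tnfrsf4, the receptor OX40, was at 0.74 (0.26 to 1.21), or 0.38 with members weighted equally, and Ifngr1 was lower, 1 gene each way among 12 cytokine receptors. Nlrc5, the activator of class I genes, and Tap2, a subunit of the peptide transporter, were 2 of 11 class I genes, at 0.74 (0.31 to 1.17) and 0.62 (0.18 to 1.04), with none lower, and Tap2 was at 0.56 by TMM. Epsti1 was at 0.73 (0.57 to 0.89), the only 1 of 16 genes of shape and movement, or 0.50 with members weighted equally. Pvr, a ligand of TIGIT and CD226, was just past at 0.59 (0.07 to 1.09), or 0.53 by TMM.

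On the lower side, Aldh1a2 was at -0.64 (-0.83 to -0.45), with 1339 and 281 UMIs. Its medians were 3 and 2 UMIs per member and its highest values 170 and 51, so the groups overlapped, and its ratio was -0.44 with members weighted equally. Fabp5 was at -0.63 (-0.76 to -0.51), with medians of 14.5 and 7 UMIs, or -0.56 with members weighted equally, and Fabp4 at -0.62 (-1.45 to 0.12), 2 of 8 lipid genes. Fabp4 also stands in the list of stromal and endothelial genes, of which it was the only 1 compared. Bhlhe40, a repressor that responds to stimulation, was at -0.66 (-1.04 to -0.30), 1 of 8 transcription factors. Of 11 dissociation stress genes, 3 were past the fold, Fos at -1.003 (-1.62 to -0.43), Dusp1 at -0.80 (-1.13 to -0.47) and Nr4a1 at -0.64 (-1.39 to 0.05), and none was higher. Nr4a1 was at 0.12 with members weighted equally. Summed over the dissociation stress list the cDC1 also had less in ABX, 11792 against 14200 CPM. Lyz2, a lysozyme gene of monocytes and macrophages, was at -0.66. Xcr1, a cDC1 receptor, had 40 UMIs in NW and 0 in ABX, at least 4.35-fold lower against 3 counts, and Clec9a had 40 and 4. Both genes were under the limit of 100 UMIs and so not among the genes compared. The most loaded NW member held 16 of the Xcr1 UMIs, and the most loaded for Clec9a held 13. Of the receptors for microbial metabolites and products, Vdr, the vitamin D receptor, was the only gene compared, at -0.56 (-1.22 to 0.05), and Ffar3, Hcar2, Gpbar1 and Nr1h4 had no UMI in any member.

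**Figure D4:**
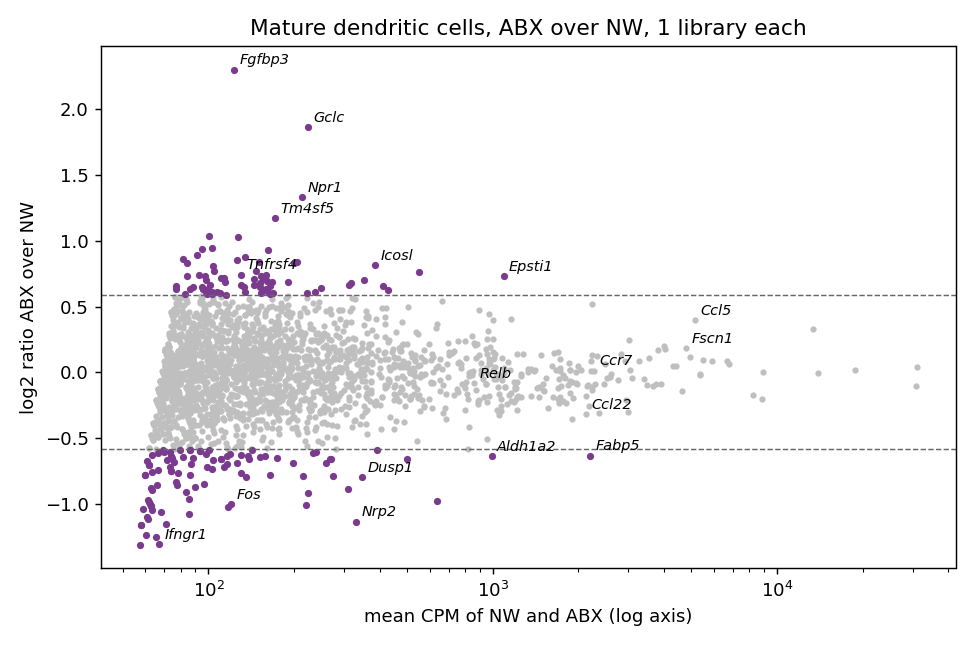
Log2 ratio of ABX over NW for 2194 genes in mature dendritic cells, against the mean CPM of both libraries on a log axis. Purple points are past 1.5-fold (dashed lines), 75 above and 98 below. Icosl lies above the upper line and Fabp5, Aldh1a2, Nrp2 and Ifngr1 below the lower.

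Mature cells keep traces of the lineage they came from, so members were split by UMIs of 8 cDC1 and 7 cDC2 lineage genes, a range and not a type. A member leaned to a lineage with at least 2 UMIs of its genes and more than of the other. In NW 17 members leaned to cDC1 (12.5%, 7.45 to 19.3%), 41 to cDC2 (30.1%, 22.6 to 38.6%) and 78 were undecided. In ABX 10 leaned to cDC1 (20%, 10.03 to 33.7%), 6 to cDC2 (12%, 4.53 to 24.3%) and 34 were undecided. The cDC2-leaning share had a ratio of 0.398 (0.180 to 0.880) and the cDC1-leaning share of 1.60 (0.786 to 3.26). Macrophages also express lineage genes. The full cDC2 list, with the 7 genes, summed to 2998 and 2706 CPM in NW and ABX macrophages, beside 833 and 731 in members. The full cDC1 list summed to 5692 and 5660 CPM in macrophages, beside 2758 and 2632 in members. The part of macrophage RNA in the leaning was not tested. Many leaning members lay near the limit. They were 24 of 41 cDC2-leaning members in NW and 2 of 6 in ABX, and 6 of 17 and 3 of 10 cDC1-leaning members. Asking for 1 or for 3 lineage UMIs gave ratios of 0.658 (0.415 to 1.04) and 0.604 (0.215 to 1.70) for the cDC2-leaning share, with intervals that reach past 1.

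The leaning cells differed in what they expressed, in both libraries. The cDC1-leaning members were not alike between libraries, with up to 62 UMIs of the cDC1 lineage genes per cell in NW and up to 4 in ABX. Of 2194 genes, 47 (2.14%) were at least 2-fold higher in cDC1-leaning members of each library and 33 (1.5%) at least 2-fold lower. Il12b stood at 657 CPM in cDC1-leaning and 209 in cDC2-leaning NW members, and at 515 and 41.2 in ABX. These levels rest on few cells, since 1 cDC2-leaning NW member held 70 of 75 UMIs and 1 cDC1-leaning NW member 52 of 109, and the cDC2-leaning ABX members had 2 UMIs in all. Ccl5 stood at 8151 and 2141 in NW and at 8636 and 2658 in ABX. Irf8 stood at 590 and 131, and at 294 and 103. Laptm4b and Mpeg1, picked with their values known, were higher in the cDC1-leaning members too, at 470 and 92.1 CPM and at 982 and 212 CPM in NW. The cDC2-leaning members were higher in Fabp5, at 3422 against 259 CPM in NW and 2535 against 242 in ABX. They were also higher in Ccl17 (623 against 102, and 1690 against 168), Nrp2 (625 against 84.3, and 350 against 94.6) and Aldh1a2 (1812 against 560, and 2205 against 315). Il2ra stood at 223 against 84.3 in NW and 206 against 10.5 in ABX, but was highest in undecided members, at 384 and 315. The CD25 antibody ran the other way between the leaning cells. Its median was 13 on cDC2-leaning and 26 on cDC1-leaning members in NW, and 6 and 12.5 in ABX. Undecided members had medians of 27.5 and 15.

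**Figure D5:**
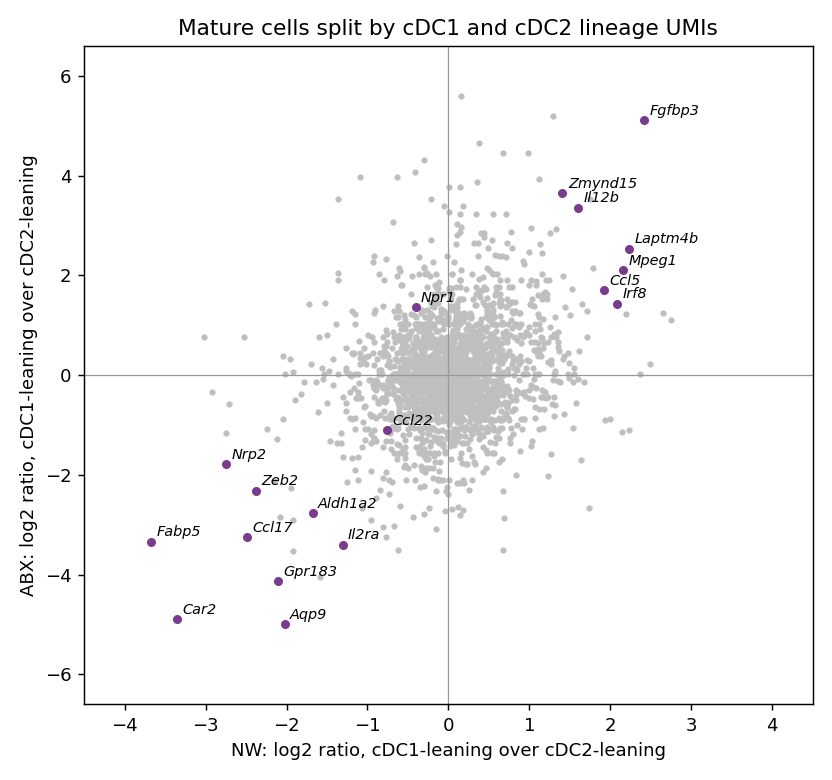
Log2 ratio of cDC1-leaning over cDC2-leaning mature cells in NW (horizontal axis) and in ABX (vertical axis) for 2194 genes. Named genes in purple include Il12b, Ccl5 and Irf8 at the upper right and Fabp5, Ccl17, Nrp2 and Aldh1a2 at the lower left.

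Several genes past the fold between ABX and NW were also genes that differed between the leaning cells. Of the 75 genes higher in ABX, 60 were higher in the cDC1-leaning cells of NW (80%), beside 50.9% of all genes compared. Of the 98 lower in ABX, 46 were (46.9%). The same NW counts enter both ratios, so these shares are not independent of the fold limit. When the leaning classes of ABX were weighted as in NW, the log2 ratio of Aldh1a2 went from -0.64 to -0.12, of Fabp5 from -0.63 to -0.41 and of Epsti1 from 0.73 to 0.36, all inside the fold limit. Fos went to -0.52 and Nfkb1 to -0.42, also inside, and Ccl17 from -0.04 to 0.65, past the limit. Il12b went from 0.34 (-0.03 to 0.69) to -0.09. Icosl was at 0.96, Npr1 at 1.13, Fgfbp3 at 1.87, Nrp2 at -0.89 and Ifngr1 at -1.26, all still past it. Over all genes the weighting gave 102 higher and 118 lower, of which 50 and 67 were past the limit without it. The weighting rests on 6 cDC2-leaning ABX cells and was chosen after the data had been seen.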

How the data were processed

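CD45+ cells of VAT were stained with AbSeq antibodies and captured by BD Rhapsody, giving 1 NW and 1 ABX library. The labels speak of 1 cartridge for labelled samples, and whether the libraries shared it is not clear from them. The authors' BD Rhapsody pipeline (version 1.8) gave the deposited UMI counts of every gene and of 10 antibodies per cell barcode, without normalization. The submitters' processing notes name mm10, R 3.6.0 and Seurat 3.0.1. The deposited tables held 17662 NW and 17785 ABX barcodes, with 79855126 and 64801767 gene UMIs. A total of 12474 and 12724 cells passed the filters, with medians of 5092 and 3845.5 UMIs. A gene listed in 1 table only was taken as 0 in the other.

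The members, gene lists and comparisons were chosen with earlier results of these data known. Members followed the rule at the head of the report, and cDC1 and cDC2 also met its C1q, Cd3 and Cd79a limits, with no Cd209a in cDC1 and no Xcr1 or Clec9a in cDC2. Counts were summed over the cells of a class and given as CPM of the class total. ABX over NW ratios carry exact 95% Poisson intervals, shares the exact Clopper-Pearson interval, and ratios of shares the interval of a log ratio. UMIs of 1 cell are not independent, so all cover counting error only, and with 1 library per condition there is no p-value. Genes compared between conditions had 100 or more UMIs in the members of NW and ABX together and were detected in 10% or more of the members of a library. Named genes are those of the lists, the 8 highest and 8 lowest ABX over NW ratios past 1.5-fold with an interval that excludes 1, and the 15 highest ratios over cDC1 and over cDC2. Doublets were kept. Scrublet (scanpy 1.11.5) gave 56 NW and 52 ABX cells a score above 0.5, a limit set by hand. The 6% with the highest scores were therefore left out as an alternative, and they held 6 NW and 2 ABX members. The median score was 0.0235 in NW members and 0.0546 in ABX members, beside 0.0194 and 0.0184 in cDC1. Promoters were matched by symbol to RefSeq. Python 3.11.15 with numpy 2.4.6, pandas 2.3.3, scipy 1.17.1 and matplotlib 3.10.9, and edgeR 4.0.16 in R 4.3.3 for TMM, were used. The ratio and its interval were tested on simulated independent Poisson counts. The interval assumes such counts, so the simulation could not show how it behaves when UMIs cluster in few cells. Of 1994 unchanged genes there, 3.01% were past 1.5-fold in either direction, beside 3.42% higher and 4.47% lower in the data. Alternatives covered the limits of the rule, depth, scaling, doublets and other cell types.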

Additional observations from a re-analysis of the deposited data

Results flagged for a closer look

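Outside the cells that passed the filters, 4 NW barcodes met the gene limits for mature dendritic cells, above the 3 counts that a count of 0 allows, and 2 ABX barcodes did.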

How the results depend on the processing

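The ratio of the mature share kept its direction under all 12 alternatives. It was 0.617 with fewer than 3 C1q UMIs and 0.512 over dendritic cells, and between 0.348 and 0.383 under the others, which changed the Fscn1, Ccl22 and Ccr7, mitochondrial and UMI limits, thinned the cells, or left out high Scrublet scores, the 3 exclusion limits or the filters. With at least 30 UMIs per gene, 486 genes of 5278 were higher and 657 lower in ABX. With members weighted equally, 97 were higher and 130 lower. Only 45 and 78 of these were among the 75 and 98 of the main comparison. Without the member with the most UMIs of each gene, added after the data had been seen, 44 were higher and 175 lower. That removes 1 of 50 ABX and 1 of 136 NW members, and the median shifted to -0.07. Without members with 3 or more UMIs of the 68 other-cell genes only 6 NW and 4 ABX members were left, and 2 genes of 32 were higher and 7 lower. With the 41 genes that are rare in cDC1 and cDC2, an alternative added later, 122 and 47 members were left, and 69 genes were higher and 78 lower. Only 49 and 55 of these were among the 75 and 98 of the main comparison, of which 64 and 68 were still compared. Under that last setting Gclc was at 0.61 and Icosl at 0.52. Of 1542 values of 156 named genes under 11 alternatives, 63 moved, that is, left the gene's own counting interval. None of the 29 genes called reversed. Median-ratio scaling and TMM only shifted every gene by the same small amount, so their values had little room to move. Nr4a1, whose interval included no difference, was at 0.12 with members weighted equally. The cause of these moves was not tested beyond what their construction shows. The counts over cDC1 and cDC2 stayed within 1.5 times under every alternative run. No paired analysis was possible because each condition is 1 library. With 50 ABX members, genes under 100 UMIs were not resolved.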

Other observations

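Retnla, a secreted protein of adipose macrophages, was seen in the members after its values had been looked at. It was detected in 94.9% of members in NW and 70% in ABX, 93.9% and 73.7% of cDC1, 83.9% and 55.9% of cDC2, and 94.7% and 79.9% of macrophages. Among interferon-stimulated genes, Mx1 had a log2 ratio of ABX over NW of -0.26 (-0.72 to 0.17) and Gbp2 of -0.13 (-0.62 to 0.33), both inside the fold limit. Gbp2, a guanylate-binding protein, was 3.24 and 2.42 log2 units above cDC1.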
